A study of Mus musculus with 6 samples.

Results

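Sox9, Onecut1, Onecut2 and Hes1 are 4 transcription factor genes linked to the identity of pancreatic duct cells. They were chosen by gene symbol and not by a rule on measured values, although earlier results of these data were known. They belong to the 31053 genes of the count matrices (Ensembl IDs ENSMUSG00000000567, ENSMUSG00000043013, ENSMUSG00000045991 and ENSMUSG00000022528), and were followed through the duct, acinar and other cell classes of each library. Sox9 is an HMG-box factor that marks the embryonic pancreatic progenitors and stays on in adult duct cells. Onecut1, also called Hnf6, and its relative Onecut2 are cut-homeodomain factors of pancreas and liver epithelium, and Onecut1 is needed for normal duct formation in the embryo. Hes1 is a basic helix-loop-helix repressor switched on by Notch receptors. It holds back the endocrine inducer Neurog3 in the developing pancreas, and it is also a Notch target in endothelium and many other tissues.

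The study compared labelled and unlabelled single pancreatic cells in homeostasis and after pancreatitis, in 6 single-cell RNA sequencing libraries of mice of the strain R26[CA]30EYFP on a C57Bl/6J background. In this strain an EYFP reporter at the Rosa26 locus is out of frame behind a CA repeat, and chance slippage of the repeat during DNA replication can switch it on, in any cell type, so that EYFP marks scattered clones. EYFP negative and EYFP positive cells each gave 1 library per run, runs 1 and 2 from untreated mice and run 3 at 9 days after cerulein (50 ug/kg into the peritoneum, 7 hourly injections a day on 2 consecutive days), a secretagogue that causes pancreatitis. The labels give no ages and do not say which animals a library came from, so a p-value here reflects only how these libraries vary, which may be technical, and run 3 and cerulein cannot be told apart.

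The libraries held 1044718 to 23658431 UMIs (unique molecular identifiers, each standing for 1 captured RNA molecule). After filtering, 4888 of 8582 barcodes were kept, with a median of 2560 to 7386 UMIs per cell in each library. They formed 20 clusters, which fixed marker genes placed in 10 classes without using the 4 genes. The ductal-like class held 346 cells. EYFP negative runs 1, 2 and 3 gave 28, 146 and 11 of them, and the EYFP positive libraries gave 120, 26 and 15. The class carried its defining markers: Spp1 was detected in 99.7% of its cells and in 11.3% of all other cells, Krt19 in 79.5% and 1.34%, and the chloride channel gene Cftr in 40.2% and 0.132%.

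The 11 ductal-like cells of EYFP negative run 3 stood apart. One cell held 58.8% of their UMIs, and their median was 1330 UMIs, against 5592 to 18174 in the other libraries. Acinar marker genes, of which 15 or 16 of 16 were detected in the class in every library, made up 5.18% of its UMIs here, against 0.184% to 0.352% elsewhere, and erythroid markers 0.752%, against 0.0011% to 0.106%. The deepest cell held 94.6% of these acinar marker UMIs, and the other 10 cells held 0.674% acinar and 1.67% erythroid marker UMIs. The 2 libraries of a run also shared 141 barcodes (23, 71 and 47 in runs 1, 2 and 3), against 5 shared between runs. In 33 shared barcodes both copies were ductal-like, and 32 of the shallower copies were in the EYFP negative library. In run 3 these were 7 of the 11 cells. Results are also given without the shallower copies or the deepest cell where this changed a call or a direction.

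The promoter of Onecut1 is shown because this gene was the one most restricted to ductal-like cells, and because it was the 1 of the 4 genes matched in the promoter table used here. The window is the 250 bases before its start in RefSeq on the mouse build GRCm38.p6, chr9:74861671-74861920 on the plus strand, 5′ to 3′, with the E-box CACGTG, a motif that Hes-family and other basic helix-loop-helix proteins can bind, in capitals.
Onecut1: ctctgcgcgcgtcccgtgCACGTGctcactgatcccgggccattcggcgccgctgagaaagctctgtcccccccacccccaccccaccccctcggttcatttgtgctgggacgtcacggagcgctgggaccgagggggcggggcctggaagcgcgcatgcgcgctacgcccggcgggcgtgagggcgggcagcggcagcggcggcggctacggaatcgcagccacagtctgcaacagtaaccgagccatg
On either strand the window held 1 match to CACGTG, starting at position -232 from the gene's start, and 6.02% of 32851 promoter windows of the same length held one. It held 0 matches to the N-box CACNAG (36.7% of windows), to CACGCG, another site of Hes proteins (7.62%), to the SOX core AACAAT (9.42%) and to the Onecut core ATTGAT (6.72%). Its GC content was 71.6%, against a median of 52.4% over the windows. These are matches of letters and say nothing of binding in these cells.

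Levels are given as CPM, counts per 1000000, that is the UMIs of a gene per 1000000 UMIs summed over the cells of a class in 1 library. They are compared between classes and libraries, and not from gene to gene. Because the genes were chosen for duct identity and the classes are clusters of the same cells, differences between classes are described without a test.

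Sox9 was present in the ductal-like cells of every library. Its level was 1013, 853 and 1273 CPM in EYFP negative runs 1, 2 and 3 and 909, 616 and 1148 CPM in EYFP positive runs 1, 2 and 3. The mean was 969 ± 232 CPM (SD, n = 6 libraries), with the lowest value in EYFP positive run 2 and both run 3 libraries at the top. Of all Sox9 UMIs in kept cells, 98.0% (3382 of 3450) lay in this class, where 86.7% of cells held at least 1. In EYFP positive run 3, each of the 15 cells held between 2 and 68 Sox9 UMIs, with a median of 18. Set per 1000 UMIs of the cell, the median was 1.04 and the highest 2.57, and the cell with the most held 15.9% of the library's ductal-like Sox9 UMIs and 16.1% of its UMIs.

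Outside the ductal-like cells Sox9 was low. Fibroblast-like cells held 28.1 ± 7.66 CPM (n = 3 libraries with at least 10 such cells), from 25 UMIs in 11 of 170 cells, and endothelial-like cells 1.51 ± 1.79 CPM (n = 6), from 9 UMIs in 1796 cells. T or NK-like cells, which should lack the gene and so show the background of free RNA, held 1 Sox9 UMI. Acinar-like cells averaged 25.4 ± 45.0 CPM (n = 5), and that mean rested on EYFP positive run 2, at 106 CPM, against 3.59 to 9.19 CPM in the other 4 libraries. The acinar-like class held 2 clusters. The larger, of 533 cells, held 3.74 CPM of Sox9 (16 UMIs in 13 cells), and the smaller, of 41 cells, held 111 CPM (9 UMIs in 8 cells). In EYFP positive run 2, 31 of 36 acinar-like cells belonged to the smaller cluster. Malat1, a nuclear RNA, stood at 141876 CPM in the smaller cluster and at 113 CPM in the larger, and Hes1 at 148 and 1.63 CPM. What part RNA quality has in these values was not tested.

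Onecut1 was found almost solely in ductal-like cells, which held 768 of its 775 UMIs (99.1%). Its level was 200, 153 and 131 CPM in EYFP negative runs 1, 2 and 3 and 235, 207 and 239 CPM in EYFP positive runs 1, 2 and 3, a mean of 194 ± 43.7 CPM (n = 6). All 3 EYFP positive libraries lay above all 3 EYFP negative ones. The gene was detected in 68.8% of ductal-like cells, and the other 7 UMIs were 6 in acinar-like and 1 in endothelial-like cells.

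Onecut2 was close to the limit of detection. Its 64 UMIs included 40 (62.5%) in 24 ductal-like cells, 6.94% of the class. The level was 7.16, 13.3 and 0 CPM in EYFP negative runs 1, 2 and 3 and 12.9, 5.31 and 5.36 CPM in EYFP positive runs 1, 2 and 3, and 8 of the 13 UMIs of EYFP negative run 2 came from 1 cell. The 0 of EYFP negative run 3 allows up to 30.3 CPM, so no library can be ranked above another from so few UMIs. The third family member, Onecut3, was at 0 CPM in ductal-like cells.

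Hes1 was the member with most of its UMIs outside the ductal-like cells. In ductal-like cells it stood at 590, 501 and 222 CPM in EYFP negative runs 1, 2 and 3 and at 912, 640 and 327 CPM in EYFP positive runs 1, 2 and 3, a mean of 532 ± 244 CPM (n = 6). The 2 run 3 libraries were the lowest. This class held 43.9% of all 5744 Hes1 UMIs, and endothelial-like cells held 45.6%. In EYFP positive run 1 the ductal-like cells held 0 to 66 Hes1 UMIs, with a median of 6, and per 1000 UMIs of the cell the median was 0.539 and the highest 8.95.

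Ordered by mean, the classes after the ductal-like one were pericyte or smooth muscle-like cells at 399 ± 221 CPM (n = 2), endothelial-like cells at 328 ± 148 CPM (n = 6), macrophage or monocyte-like cells at 302 ± 396 CPM (n = 5) and fibroblast-like cells at 143 ± 83.4 CPM (n = 3). Lower still were B or plasma-like cells at 54.1 ± 33.4 CPM (n = 6), acinar-like cells at 29.0 ± 45.7 CPM (n = 5), erythroid-like cells at 10.04 ± 10.3 CPM (n = 2) and T or NK-like cells at 9.04 ± 10.1 CPM (n = 6). Neighbours in this order differed by less than the larger of their SDs, except that the fibroblast-like mean lay just over 1 SD above that of the B or plasma-like cells. The macrophage value was set by few cells: its highest library, EYFP positive run 1 at 935 CPM, held 53 UMIs in 3 of 10 cells.

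Endothelial-like cells held 451, 287 and 248 CPM of Hes1 in EYFP negative runs 1, 2 and 3 and 510, 374 and 101 CPM in EYFP positive runs 1, 2 and 3. Within a library the ductal-like level was 1.31 to 3.23 times the endothelial-like one in 5 libraries and 0.895 times in EYFP negative run 3. The 0.895 rested on the deepest ductal-like cell of that library, which held 19 of the 22 Hes1 UMIs. The other 10 ductal-like cells there stood at 73.5 CPM, against 248 CPM in endothelial-like cells. The 3.23 came from EYFP positive run 3, where endocrine markers (5 of 9 detected) made up 31.2% of the endothelial-like UMIs, against 0% to 0.731% in the other libraries, and where 1 cell, with 79.3% endocrine marker UMIs and 0 Hes1 UMIs, held 38.3% of the UMIs. Without that cell the endothelial-like level of this library was 164 CPM and the ratio 2.0. Among the 5 endothelial-like clusters the level ran from 205 to 521 CPM. Hes1 was detected in 49.4% of endothelial-like cells and in 2.11% of T or NK-like cells.

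**Figure D1:**
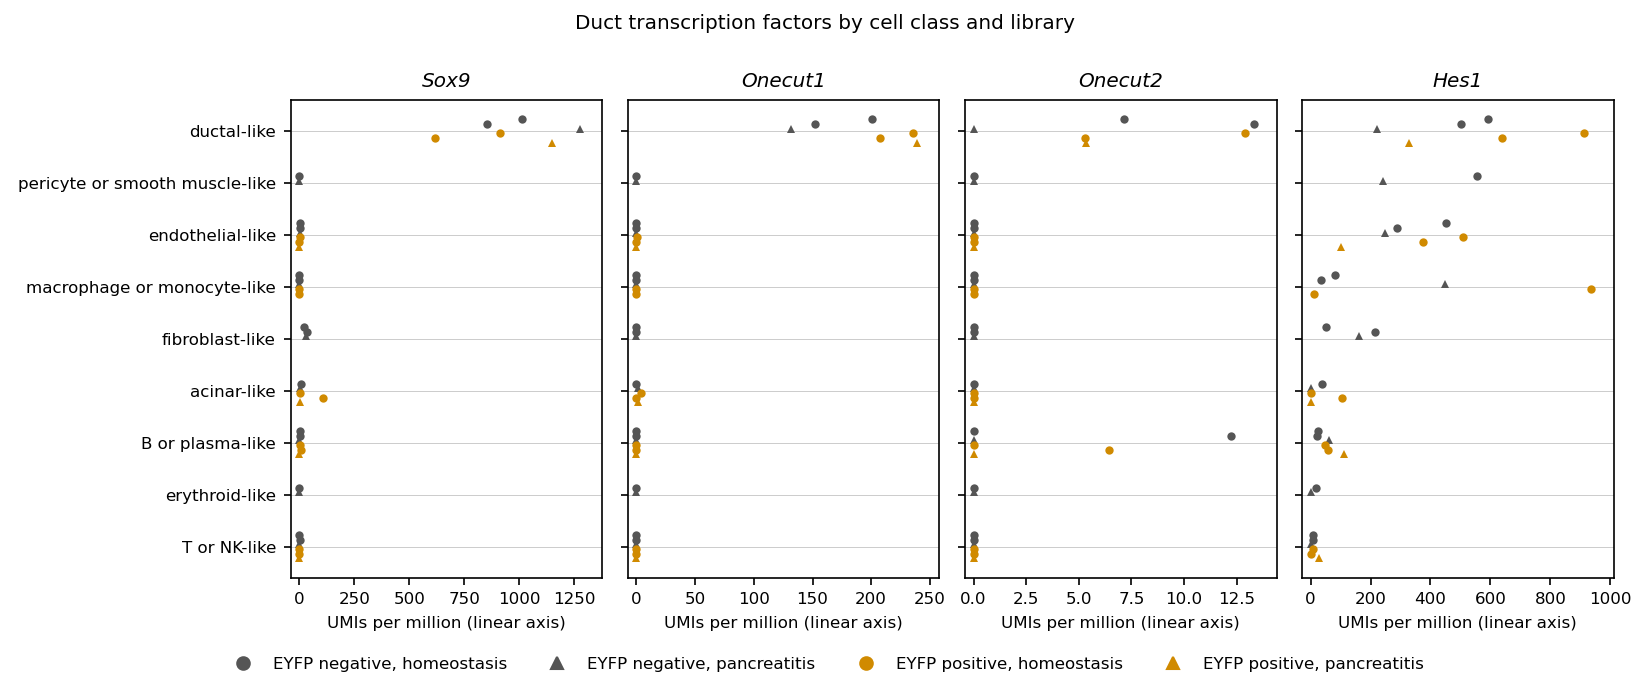
Level of each gene by cell class. Each point is 1 library with at least 10 cells of the class, and the linear axis gives CPM. Sox9 and Onecut1 stand out in ductal-like cells, whereas Hes1 in ductal-like cells (222 to 912 CPM) overlaps with endothelial-like cells (101 to 510 CPM, the lowest from a library with endocrine RNA in the class).

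**Figure D2:**
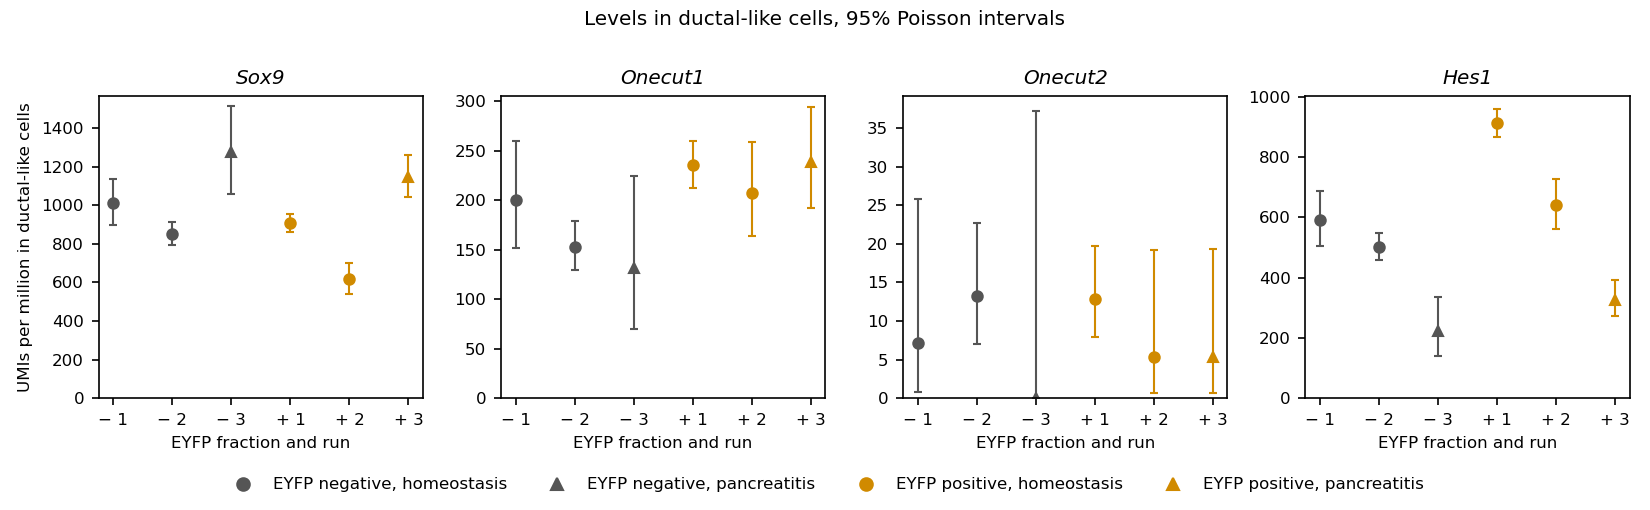
Level of each gene, in CPM, in the ductal-like cells of the 6 libraries, by EYFP fraction, run and condition. The run 3 libraries are the lowest for Hes1 (222 and 327 CPM) and the highest for Sox9 (1273 and 1148 CPM).

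Shares of cells with a UMI depend on depth: ductal-like cells with a Sox9 UMI had a median of 10494 UMIs and those without had 1634. Shares were therefore computed at 1000 UMIs per cell, as the share expected over all possible draws of 1000 UMIs, which left out 20 shallower cells and kept 26, 134 and 9 in EYFP negative and 117, 25 and 15 in EYFP positive runs 1, 2 and 3. Sox9 was then detected in 53.7 ± 9.45% of ductal-like cells (n = 6 libraries) and in 0.0143% of T or NK-like cells. Onecut1 was detected in 18.2 ± 7.35% of ductal-like cells, and Hes1 in 31.6 ± 11.3% of ductal-like and 24.6 ± 7.89% of endothelial-like cells, against 0.799% of T or NK-like cells. Onecut2, at 0.640%, was at the level of single UMIs.

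At full depth, 21 ductal-like cells held a UMI of all 4 genes, 155 of 3 genes, 106 of 2, 39 of 1 and 25 of none. The median depth of these cells was lower in the same order, from 13397 UMIs for all 4 genes to 1105 for none. Hes1 was found in 74.3% of the 300 cells with a Sox9 UMI and in 32.6% of the 46 cells without one, a difference of 41.7 percentage points. At 1000 UMIs per cell the shares were 36.6% and 34.9%, a difference of 1.70 percentage points, or 0.989 without the shallower copies of shared barcodes. Onecut1 behaved likewise: it was found in 75.7% of cells with Sox9 and 23.9% of cells without at full depth, and in 18.2% and 16.5% at equal depth. Thinning also moves cells with Sox9 into the group without it, which held 46 of 346 cells at full depth and 161 of 326 at equal depth. That mixing narrows any gap, so the small gaps do not show that the genes are detected independently. In single libraries the difference between Hes1 shares at equal depth ran from -18.1 percentage points, in the 9 cells of EYFP negative run 3, to 12.7 in EYFP negative run 1. Without the shallower copies it was 0.852 in EYFP negative run 3, from 4 cells.

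**Figure D3:**
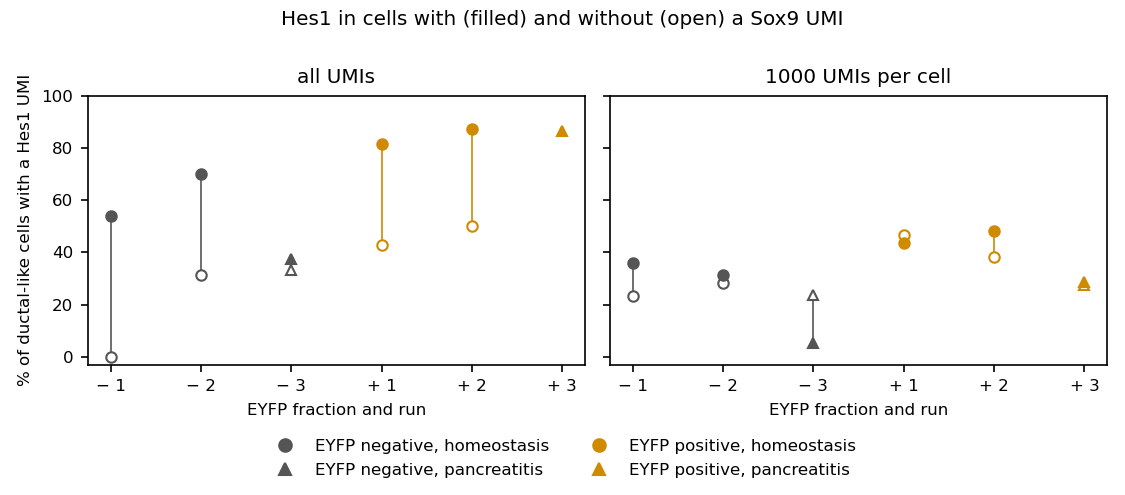
Share of ductal-like cells with a Hes1 UMI, in percent, among cells with (filled) and without (open) a Sox9 UMI in each library, at full depth and at 1000 UMIs per cell; at full depth EYFP positive run 3 had no cell without Sox9. Over all cells the gap of 41.7 percentage points at full depth is 1.70 percentage points at equal depth, where thinning also moves cells with Sox9 into the group without it.

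Labelled and unlabelled ductal-like cells were compared to see whether EYFP positive clones differ in the 4 genes. In edgeR's quasi-likelihood test on summed counts, with the condition in the model, Hes1 was 0.48 ± 0.24 higher in EYFP positive cells on the log2 scale (SE, adjusted p = 1.0 with the Benjamini-Hochberg method over 6206 genes). Onecut1 was 0.43 ± 0.24 higher (adjusted p = 1.0 in edgeR), and Sox9 was at -0.30 ± 0.24 (adjusted p = 1.0 in edgeR). The levels of both Hes1 and Onecut1 were higher in the EYFP positive library in 3 of 3 runs, as were those of 16.7% of all genes tested. Sox9 was lower in 3 of 3 runs, as were 10.7% of all genes. Of 15 immediate-early and dissociation genes tested, which respond to tissue handling, 13 were also higher and 2 lower in EYFP positive cells, with a median log2 difference of 0.32 against 0.01 over all genes, and none passed the threshold. Their summed level was 5511, 4769 and 8628 CPM in EYFP negative and 5592, 11823 and 6623 CPM in EYFP positive runs 1, 2 and 3, and its part in the member differences was not tested. None of the 3 genes tested passed an adjusted p of 0.05, where 0.0806% of all genes did (5 genes, all lower in EYFP positive cells), and Onecut2 had too few UMIs to be tested. Onecut1 was the 1 member whose levels did not overlap between the fractions, as was so, in the higher direction, for 5.64% of all genes tested. Without the shallower copies of shared barcodes 1 gene was called, and again none of the members.

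The shares of cells at equal depth gave the same order for Hes1. It was detected in 30.4%, 29.8% and 13.6% of ductal-like cells in the EYFP negative libraries of runs 1, 2 and 3, while the EYFP positive libraries gave 45.1%, 42.5% and 28.3%. The mean difference was 14.0 percentage points, positive in 3 of 3 runs, and the groups overlapped only through EYFP positive run 3. A two-sided exact permutation test gave p = 0.3 (0.6 adjusted over 4 genes), where 3 libraries against 3 cannot go below 0.1. Without EYFP negative run 3 the Hes1 difference was 8.52 percentage points, and leaving out another library gave 10.8 to 19.2. The mean difference was 8.77 percentage points for Onecut1 (exact permutation p = 0.3, adjusted 0.6, positive in 2 of 3 runs), of which run 3 gave 20.6, run 2 gave 6.76 and run 1 gave -1.06. Without EYFP negative run 3 it was 5.28. Without the shallower copies of shared barcodes it was 7.01, positive in 3 of 3 runs (exact permutation p = 0.1, the smallest possible). For Sox9 the mean difference was 1.99 percentage points (exact permutation p = 1, positive in 1 of 3 runs), or 0.306 without the shallower copies.

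**Figure D4:**
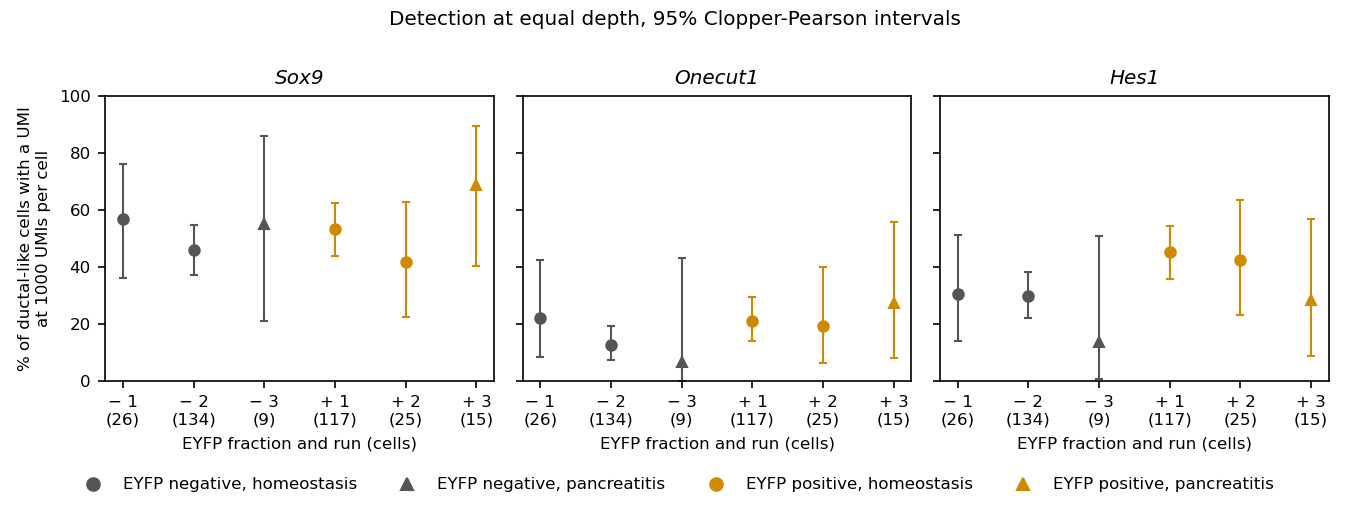
Share of ductal-like cells with a UMI of Sox9, Onecut1 or Hes1, in percent at 1000 UMIs per cell, in each library. Bars are 95% Clopper-Pearson intervals, which cover counting error only, and the number of cells is under each library. Hes1 is higher in the EYFP positive library of each run.

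Pancreatitis libraries were compared with homeostasis libraries within each EYFP fraction, 1 library against 2, taking the lone library to vary like the others. Hes1 was lower at 9 days after cerulein by similar amounts in both fractions, but missed the threshold in each. The log2 difference was -1.23 ± 0.50 in EYFP negative ductal-like cells (adjusted p = 0.528 in edgeR) and -1.28 ± 0.43 in EYFP positive ones (adjusted p = 0.593 in edgeR). Of 7968 genes, 0.715% passed in the EYFP negative and 0.151% in the EYFP positive comparison, and none of the 3 members tested was among them. The difference of the 2 effects was -0.04 ± 0.65 for Hes1 (adjusted p = 1.0 in edgeR, with 0.351% of all genes called), an SE that leaves room for a sizeable difference either way.

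For Hes1, both pancreatitis libraries, at 222 and 327 CPM, lay below all 4 homeostasis libraries, at 501 to 912 CPM. Over all genes tested, 9.85% were lower without overlap in the same way. In an additive model of EYFP and condition over the 6 libraries, an alternative to the group means, Hes1 fell by 1.26 ± 0.30 on the log2 scale (adjusted p = 0.0325 in edgeR), 1 of 3 members tested. Of all genes, 0.552% were called in this model and 0.138% were called lower. Both pancreatitis libraries came from 1 run, so they replicate the EYFP fractions and not the treatment. The adjusted p in edgeR was 0.509 without EYFP negative run 3, 0.514 without EYFP positive run 3 and 0.061 without EYFP positive run 1, and the call was lost in each of these cases. It was 0.036 without the shallower copies of shared barcodes.

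In EYFP negative run 3, the deepest cell held 19 of the 22 Hes1 UMIs. It stood at 327 CPM. The other 10 cells held 3 Hes1 UMIs, the smallest count read here as detected, at 73.5 CPM. Of these 10, 7 were shallower copies of shared barcodes, and the 3 remaining held 2 Hes1 UMIs, below that count, at 59.5 CPM. No fit left out both these copies and the deepest cell. Without this cell the log2 difference of Hes1 in EYFP negative cells was -3.08 (adjusted p = 0.068 in edgeR), the number of genes called went from 57 to 10, and the additive model gave -1.63 ± 0.32 for Hes1 (adjusted p = 0.000272 in edgeR). The difference between the fractions was then 1.79 (adjusted p = 0.899 in edgeR).

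Sox9 went the other way in CPM, at 1273 and 1148 CPM in the pancreatitis libraries against 616 to 1013 CPM in homeostasis, without overlap, as was so in the higher direction for 9.44% of all genes. The log2 difference was 0.51 ± 0.41 in EYFP negative cells (adjusted p = 0.871 in edgeR), 0.56 ± 0.40 in EYFP positive cells and 0.54 ± 0.26 in the additive model (adjusted p = 0.922 in edgeR). Without the deepest cell, EYFP negative run 3 stood at 1004 CPM of Sox9, within the range of the homeostasis libraries, and the log2 difference in EYFP negative cells was -0.08. Onecut1 was at -0.35 ± 0.54 in EYFP negative cells (adjusted p = 0.949 in edgeR) and at 0.08 ± 0.40 in EYFP positive cells. Neither Sox9 nor Onecut1 passed the threshold in any of these fits.

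Other measures moved with run 3. In ductal-like cells Ddx3y, a Y-linked gene, was at 0 CPM in both run 1 libraries, at 14.3 and 45.1 CPM in run 2 and at 90.9 and 72.4 CPM in run 3, and Xist, which is expressed from the inactive X chromosome of females, was at 0 and 150 CPM in run 3 against 175 to 1424 CPM in runs 1 and 2. The share of haemoglobin UMIs over all barcodes was 62.6% and 20.2% in run 3, against at most 7.23% in the other libraries. Their part in the Hes1 and Sox9 values was not tested.

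**Figure D5:**
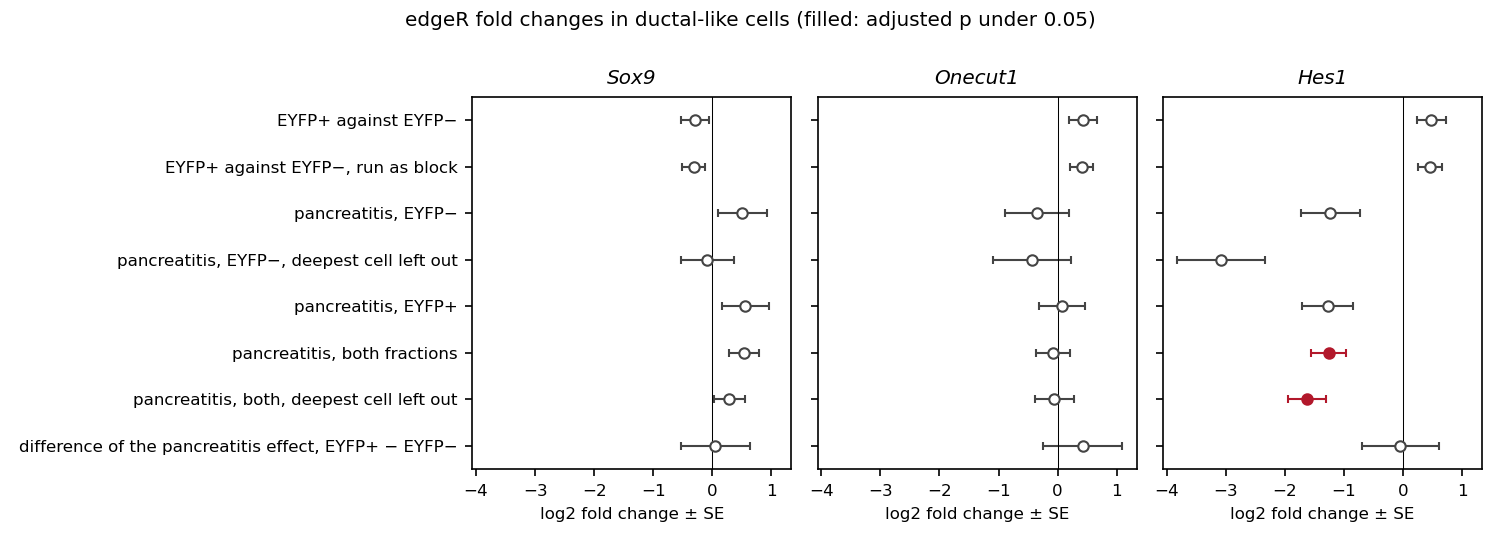
Log2 differences of Sox9, Onecut1 and Hes1 in ductal-like cells with their standard errors, filled where the adjusted p was under 0.05. Rows are EYFP without and with run as a block, pancreatitis in each EYFP fraction and in the additive model, and the difference between the fractions. The EYFP negative and additive fits are also drawn without the deepest cell of EYFP negative run 3. Hes1 is at -1.23 and -1.28 in the 2 fractions and at -1.26 in the additive model. Sox9 lies between 0.51 and 0.56 in the same 3 comparisons. Without the deepest cell, Sox9 is at -0.08 and Hes1 at -3.08 in EYFP negative cells.

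In endothelial-like cells, where Hes1 also answers to Notch, it did not differ between the EYFP fractions beyond its error, at 0.00 ± 0.26 on the log2 scale (adjusted p = 1.0 in edgeR, with 0.0153% of 6549 genes called, or 4 genes with run as a block). It was at -0.54 ± 0.42 after cerulein in EYFP negative cells (adjusted p = 1.0 in edgeR, with 0.038% of 7892 genes called) and at -0.96 ± 0.30 in the additive model (adjusted p = 0.603 in edgeR, with 0.0634% of genes called). That model holds EYFP positive run 3 with its endocrine RNA: without the deepest endothelial-like cell there it gave -0.89 ± 0.29 (adjusted p = 0.657 in edgeR), and without the library -0.54 ± 0.43 (adjusted p = 1.0 in edgeR). By CPM, Hes1 in endothelial-like cells was also lower in both pancreatitis libraries (248 and 101) than in all 4 homeostasis libraries (287 to 510). The 101 CPM was 164 CPM without the deepest cell. The share of all genes with this order was not computed in that class. In acinar-like cells, the EYFP fit over 489 genes held none of the members and called 0%. After cerulein 0% of 2435 genes were called in EYFP negative acinar-like cells, where Sox9 was at 0.24 (adjusted p = 0.998 in edgeR) and Hes1 at -2.22 ± 1.97 (adjusted p = 0.901 in edgeR). The cells compared lay in part in different clusters: of the homeostasis cells 24 were of the larger cluster and 7 of the smaller, Malat1-rich one, 1 of which held all 4 Hes1 UMIs, whereas all 370 pancreatitis cells were of the larger one. Without EYFP negative run 2 Hes1 was at 4.19, and without EYFP negative run 1 Sox9 was at -0.31. At an unadjusted p under 0.05 there were 2 and 143 genes in these fits, DESeq2 called 1 and 13, and the additive model called 5.38% after cerulein, with neither Sox9 nor Hes1 among them.

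Several ligands and receptors of the Notch pathway, which drives Hes1, differed in level between ductal-like and endothelial-like cells, the 2 classes with most Hes1 UMIs. Of the 4 receptor genes, Notch2 averaged 184 ± 76.6 CPM in ductal-like and 1.56 CPM in endothelial-like cells, whereas Notch1 averaged 68.4 CPM and 312 CPM, and Notch4 1.91 and 139 CPM. Among the ligands Jag1 was at 46.0 ± 34.0 CPM in ductal-like and 28.6 ± 10.8 CPM in endothelial-like cells, with overlap between libraries. Dll4 and Jag2 were at 0.307 and 2.28 CPM in ductal-like cells and at 125 and 120 CPM in endothelial-like cells. Rbpj, the DNA-binding partner of the activated receptor, was at 59.5 ± 20.5 CPM in ductal-like and 49.4 ± 7.18 CPM in endothelial-like cells, also with overlap. Of 7 other Notch target genes, 4 had higher means in ductal-like than in endothelial-like cells, Hes6 (36.5 and 16.3 CPM), Hey2 (5.24 and 0.660 CPM), Heyl (5.11 and 0 CPM) and Hes7 (1.65 and 0.444 CPM). The other 3 had lower means, Nrarp (16.3 and 171 CPM), Hey1 (5.88 and 91.6 CPM) and Hes5, at 0 CPM in ductal-like cells with 1 UMI in endothelial-like ones. Hes7 rested on 6 UMIs in ductal-like cells, with 0 CPM in its lowest library, and so few UMIs cannot fix an order. No gene of these lists passed the threshold for EYFP or for pancreatitis in ductal-like cells, among 1 ligand, 2 receptors and 9 to 13 processing genes tested. Notch2 was 1.31 ± 0.48 higher after cerulein in EYFP negative cells (adjusted p = 0.429 in edgeR) and 1.003 ± 0.29 higher in the additive model (adjusted p = 0.15 in edgeR), and Hes6 was at -1.37 ± 0.50 in the additive model (adjusted p = 0.469 in edgeR).

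Proneural and endocrine genes, among them targets that Hes1 represses, were not detected: Neurog3, Neurod1, Atoh1 and Insm1 each held 0 UMIs in the 346 ductal-like cells, which allows a UMI in up to 0.867% of them and a level of up to 0.804 CPM. Among the corepressors that Hes1 recruits and the relatives of these genes, Aes was at 741 CPM and Tle4 at 86.5 CPM in ductal-like cells.

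Of 20 other duct and epithelial transcription factors, 14 could be tested in ductal-like cells and none passed the threshold in any ductal comparison. For EYFP, 4 were higher and 10 lower, with a median log2 difference of -0.15 against 0.01 over all genes. In the additive model 9 were higher and 5 lower after cerulein, with a median of 0.14 against -0.02. Those with the highest CPM, which is not set per gene length, were Sox4 at 607 ± 95.1, Prox1 at 401 ± 94.7, Ehf at 393 ± 86.8 and Gata6 at 281 ± 42.3 CPM. Acinar factors were present in part: Ptf1a, which drives the acinar programme, held 2 UMIs in all ductal-like cells, while Nr5a2 and Xbp1 were at 157 and 176 CPM.

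All 15 duct products and cilium genes were tested after cerulein, and 1 passed. In the additive model Cftr fell by 2.04 ± 0.45 (adjusted p = 0.0156 in edgeR), where 0.552% of all genes were called and 0.138% called lower. There 10 of the 15 were lower, with a median of -0.10 against -0.02 over all genes. The adjusted p of Cftr in edgeR was 0.728 without EYFP positive run 3 and 0.0853 without EYFP positive run 1, so its call was lost in both cases, and 0.00255 without the deepest cell. Of 16 immediate-early and dissociation genes, 15 were tested. In EYFP negative cells 4 of them rose after cerulein, where 0.715% of all genes were called: Hspa1a by 3.09, Fosb by 2.78, Fos by 2.16 and Btg2 by 1.78 on the log2 scale (adjusted p from 7.01e-06 to 0.00404 in edgeR). Without the deepest cell of EYFP negative run 3, Hspa1a was at 3.23 (adjusted p = 0.0462 in edgeR), but Fosb was at 0.81, Fos at 0.37 and Btg2 at -0.51 and their calls were lost. In EYFP positive cells none passed, and 4 were higher and 11 lower (median -0.53 against -0.02 over all genes). For the difference between the fractions 3 were higher and 12 lower (median -0.93 against 0.08), again with none past the threshold. The call of Btg2 was also lost without EYFP negative run 2. In the additive model, where 0.552% of all genes were called in either direction, Fosb and Hspa1a rose, by 1.90 and 2.50. There the call of Fosb was lost without that cell, and both calls were lost without EYFP negative run 3. The summed level of this list was 8628 and 6623 CPM in run 3 and 4769 to 11823 CPM in the other libraries, which overlap. Its part in the Hes1 difference was not tested.

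The genes whose levels followed each factor most closely over the 8 classes with at least 50 cells were chosen among 12816 genes by the Pearson correlation of log2(CPM + 1). For Sox9 these were Epb41l5 (r = 0.996), Clmn, Sh2d4a, Gpt2 and Thsd4 (r = 0.989). For Onecut1 they were Itgb6, Sbspon, Gm5420, Lrrc8e and Bicdl2, at r = 0.9998 to 0.9996, values that genes found almost solely in 1 class can give. For Onecut2 they were Aadac (r = 0.999), Ifi27l2b, Rsph1, Misp and Hkdc1 (r = 0.982). Outside the ductal-like class the Onecut2 pattern rests on 4 barcodes of the B or plasma-like class, of which 3 held epithelial genes such as Epcam and Krt8 and no Ptprc, a leukocyte gene. For Hes1 they were Evi5 (r = 0.978), Tmem67, Cd81, Nf1 and Ift172 (r = 0.953). Between the members, r was 0.881 for Sox9 and Onecut1, 0.902 for Onecut1 and Onecut2, and 0.486 to 0.523 for Hes1 with the others. The 8 points share libraries and depth, so these values are a description.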

How the data were processed

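The deposited matrices hold raw counts, UMIs per gene for barcodes already filtered to cells. Per the submitters' processing notes they came from Cell Ranger 2.1.0 and GRCh38, a human build, whereas the file headers name version 3.1.0 and every gene ID is murine. The mouse build used is thus not given in these sources. The features held 0 rows for EYFP, so the sort was not checked in the counts.

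A barcode needed 200 or more genes and no more than 20% mitochondrial UMIs, and doublets called by Scrublet in each library were removed. Clusters were made in scanpy 1.11.5 from 2000 variable genes without the 4 members, 30 principal components and 15 neighbours by the Leiden method of igraph 0.11.9 at resolution 1, and named from marker lists. Members, gene lists and marker lists were chosen with earlier results of these data known. For each class, the UMIs of its cells were added up by library, and edgeR 4.0.16 under R 4.3.3 tested these sums (TMM, filterByExpr, quasi-likelihood F test), with Benjamini-Hochberg adjustment over all genes tested and a threshold of 0.05. Zeros were read against a floor of 3 counts. Shares of cells are the expectation over all draws of 1000 UMIs per cell. Intervals cover counting error only.

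Named genes were the 4 members, up to 4 genes of each list with the highest mean CPM in ductal-like cells or any past the threshold, and the 5 genes most correlated with each member. Rbpj, Jag1, Jag2, Dll4, Nrarp, Hey1, Hes5, Onecut3, Ptf1a, Xist, Ddx3y and Malat1 were added for their roles, and some genes of the lists are not reported here. The run number in the labels pairs the libraries of a run. In homeostasis, the run 1 minus run 2 difference of gene levels in EYFP negative libraries correlated with that in EYFP positive libraries over genes. The correlation was 0.311 in ductal-like, 0.2 in endothelial-like and 0.403 in acinar-like cells, and run 3 did not enter it. On simulated counts, the EYFP test in ductal-like cells (6221 genes) recovered 40.48%, 94.64% and 100% of changed genes tested at 2, 4 and 8-fold, and the pancreatitis test in EYFP negative ductal-like cells (7855 genes) recovered 1.923%, 31.15% and 63.38%. The simulation gave every gene the same spread between libraries (a dispersion of 0.04535), changed no gene with few UMIs and did not model single cells. Its rates hold for that setting only. Alternatives were DESeq2 1.42.0 and its size factors, other filters on genes and cells, clustering choices, library sizes, run as a block, an additive model and each library left out. Scripts ran in Python 3.11.15 with scipy 1.17.1, pandas 2.3.3, numpy 2.4.6 and, for plots, matplotlib 3.10.9.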

Additional observations from a re-analysis of the deposited data

How the results depend on the processing

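Of 615 alternative values, 522 kept the direction and the side of the threshold or stayed within the allowed range, 61 moved, 25 changed sign and 7 passed the threshold where the reported value did not. The 7 are all of Hes1 after cerulein in ductal-like cells, in variants of the additive model, and 1 of these fits is counted under both EYFP fractions. Mean levels of the members in ductal-like cells stayed within 1 SD, a limit that leaving out 1 library could not break. Some of the 522 were fixed in advance. Ductal-like cells were the same 346 at Leiden resolution 0.5 and with members kept in the variable genes. Pairing the libraries by run left each share difference as it was. Leaving out shallower copies of shared barcodes, leaving out the deepest ductal-like or endothelial-like cell of 1 library, combining the additive model or the block with another change, and drawing UMIs once at random were chosen after seeing the data. The cause of each change was not tested.

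Numbers of genes called in ductal-like cells moved as follows. For EYFP (5 genes), DESeq2 gave 1, no filter 40, stricter cells 0, no shallower copies 1, and leaving out 1 library 5 to 9. For pancreatitis in EYFP negative cells (57), DESeq2 gave 30, no deepest cell 10, the additive model without that cell 31, and the additive model without EYFP negative run 3 gave 13. In EYFP positive cells (12), DESeq2 and all barcodes gave 0, no filter 19, library sizes without enzyme, haemoglobin and immunoglobulin genes, doublets kept, no shallower copies and no deepest cell 6 each, stricter cells 2, the additive model 44 and leaving out 1 library 12 to 25. For the difference of the effects (28), no deepest cell gave 1. Signs changed for Sox9 in EYFP negative cells (-0.082 without the deepest cell), for Onecut1 (0.075 in the additive model without EYFP negative run 3, and -0.072 in the additive model against 0.076 in EYFP positive cells), and for the difference of the effects (Sox9 -0.013 with all barcodes and -0.17 to 0.32 leaving out 1 library, Hes1 1.79 without the deepest cell and -0.24 to 0.19 leaving out 1 library).

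In acinar-like cells, DESeq2 called 1 gene for EYFP (0 reported), and for pancreatitis (0 reported) DESeq2 called 13, all barcodes 1, the additive model 131, or 115 without shallower copies, 216, 10 and 5 without EYFP negative runs 1, 2 and 3 and 192 and 103 without EYFP positive runs 1 and 2, and leaving out 1 library gave 0 to 61. Sox9 there (0.24) went to -0.38 with DESeq2's size factors, -0.52 with DESeq2, -1.27 with all barcodes, -0.44 in the additive model, -0.48 without shallower copies in it, -0.77, -0.42 and -0.63 without EYFP negative runs 1 and 2 and EYFP positive run 1 in it, and -0.31 to 4.81 leaving out 1 library. Hes1 there ran from -2.90 to 4.19. In endothelial-like cells, the EYFP test (1 gene) gave 2 with DESeq2, 49 with no filter, 4 with run as a block, with or without shallower copies, and 1 to 9 leaving out 1 library. Hes1 (0.0038) was at -0.0040 with DESeq2, -0.045 with no filter, -0.0024 with the block and -0.0021 with the block and no shallower copies, and -0.26 to 0.27 leaving out 1 library. For pancreatitis (3 genes), DESeq2, stricter cells, the additive model and that model without shallower copies or without the deepest endothelial-like cell of EYFP positive run 3 gave 5 each, no filter 41, all barcodes 12, the additive model without EYFP negative runs 1, 2 and 3 gave 6, 50 and 21 and without EYFP positive run 2 gave 5, and leaving out 1 library 3 to 48.

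With run as a replicate block, 6 genes were called for EYFP in ductal-like cells, and Hes1 (0.46), Onecut1 (0.40) and Sox9 (-0.32) stayed short of the threshold. The block changed no other call than the endothelial-like count. The EYFP difference in the share of cells with Sox9 ran from -5.12 to 8.45 percentage points leaving out 1 library, and without equal depth the gap in Hes1 between cells with and without Sox9 was 41.7 percentage points. The few ductal-like cells of run 3, 11 and 15, limit the pancreatitis comparisons in that class.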

Other observations

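Onecut2 UMIs outside the ductal-like class lay in 4 barcodes of the B or plasma-like class, which held 11, 9, 3 and 1 of them. The barcodes with 11, 9 and 1 Onecut2 UMIs also held 111, 39 and 21 UMIs of the epithelial gene Epcam, 127, 104 and 49 of Krt8, 128, 310 and 46 of the intestinal epithelial gene Lgals4 and 7, 4 and 1 of the intestinal transcription factor gene Cdx1, with 0 UMIs of the leukocyte gene Ptprc. The barcode with 3 Onecut2 UMIs held 22 of Ptprc and 178 of the antibody gene Igkc. These genes were chosen after the values were seen, and no group was compared.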
